A study of Mus musculus with 4 samples.

Results

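The cytotoxic effector genes are 9 of the 32285 genes counted in 4 droplet single-cell RNA libraries from mouse pancreatic tumours. They were taken by symbol: the granzymes Gzma, Gzmb and Gzmk, the pore former Prf1, the granule protein Nkg7, the chemokine Ccl5, the cytokine Ifng, and the lectin-like receptors Klrk1 and Klrd1. All 9 are listed in the count matrices and all had UMIs in both whole libraries. KPC cells, a mouse model of pancreatic ductal adenocarcinoma, had been implanted in the pancreas of C57BL/6J mice that received no treatment, and tumours were collected on day 13. The line KPC-4545 gave 1 unsorted (whole) library and 1 enriched library, and so did the line KPC-3403; the enriched cells had been sorted as CD45-, CD31-, EPCAM- and TER119-negative. Whether a library pooled several animals is not stated in the labels. Each group is thus 1 library, so differences between lines have no replicate check and carry no p-value.

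The whole KPC-4545 library held 5746733 UMIs and 526 cells with a median of 3593.5 UMIs, and the whole KPC-3403 library 13990046 UMIs and 1103 cells with a median of 4085 UMIs. The whole KPC-3403 and enriched KPC-4545 libraries shared 132 cell barcodes, against 6 to 8 for every other pair of libraries. The shared barcodes had a median of 29314 UMIs in whole KPC-3403 and 785 in enriched KPC-4545, and among the whole KPC-3403 lymphocytes they were 1 CD8 T, 2 CD4 T and 1 NK-like cell. All comparisons between cell classes and lines are from the whole libraries, because the sort of the enriched ones removed CD45+ cells.

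Killer lymphocytes carry lysosome-like granules loaded with perforin and granzymes. On contact with a target, perforin (Prf1) opens the target's membrane and granzymes, which are serine proteases, enter and trigger its death; Gzma and Gzmb encode the classic forms, and Gzmk a relative often seen in memory and chronically stimulated CD8 T cells. Nkg7 encodes a granule membrane protein needed for efficient degranulation. Klrk1 encodes NKG2D, a receptor for stress-induced ligands on tumour cells. Klrd1 encodes CD94, which pairs with NKG2 proteins to read the MHC molecule Qa-1. Ifng encodes interferon gamma, which makes tumour and myeloid cells display more MHC, and Ccl5 a chemokine that draws in T cells and myeloid cells.

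The members lie at separate sites in mm10. Gzma (ENSMUSG00000023132) is at chr13:113093825-113100981 on the minus strand, and Gzmk (ENSMUSG00000042385) 70626 bases away at chr13:113171608-113225908, also on the minus strand, where it overlaps Esm1 on the other strand. Klrd1 (ENSMUSG00000030165, chr6:129591782-129598775, plus strand) and Klrk1 (ENSMUSG00000030149, chr6:129610323-129623864, minus strand) are 11547 bases apart. Gzmb (ENSMUSG00000015437) is at chr14:56258838-56262260 on the minus strand, Prf1 (ENSMUSG00000037202) at chr10:61297833-61304680 on the plus strand, and Nkg7 (ENSMUSG00000004612) at chr7:43437073-43438249 on the plus strand. Ccl5 (ENSMUSG00000035042) is at chr11:83525778-83530518 on the minus strand and Ifng (ENSMUSG00000055170) at chr10:118441046-118445892 on the plus strand, where it overlaps the unclassified locus Gm49751.

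The 250 bases before the RefSeq start (GRCm38.p6) are shown for Gzma and Prf1, which were found together in the NK-like cells, and for Ifng, whose levels in NK-like and CD8 T cells overlapped. Each is written 5′ to 3′ on the gene's strand. Capitals mark matches, on either strand, to the core letters of a RUNX site (TGTGGT, other strand ACCACA), an ETS site (CAGGAA, other strand TTCCTG) and a T-box site (AGGTGT, other strand ACACCT).
Gzma, chr13:113100982-113101231, minus strand: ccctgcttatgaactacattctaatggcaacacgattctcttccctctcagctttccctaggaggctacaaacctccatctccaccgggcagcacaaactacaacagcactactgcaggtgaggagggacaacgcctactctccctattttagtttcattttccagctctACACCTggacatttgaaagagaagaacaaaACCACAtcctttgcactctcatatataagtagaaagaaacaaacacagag
Prf1, chr10:61297586-61297835, plus strand: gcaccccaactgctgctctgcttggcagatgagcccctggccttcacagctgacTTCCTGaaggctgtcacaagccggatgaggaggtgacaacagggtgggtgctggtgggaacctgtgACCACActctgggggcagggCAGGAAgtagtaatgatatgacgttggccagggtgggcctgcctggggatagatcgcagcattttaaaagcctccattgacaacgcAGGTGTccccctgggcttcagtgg
Ifng, chr10:118440796-118441045, plus strand: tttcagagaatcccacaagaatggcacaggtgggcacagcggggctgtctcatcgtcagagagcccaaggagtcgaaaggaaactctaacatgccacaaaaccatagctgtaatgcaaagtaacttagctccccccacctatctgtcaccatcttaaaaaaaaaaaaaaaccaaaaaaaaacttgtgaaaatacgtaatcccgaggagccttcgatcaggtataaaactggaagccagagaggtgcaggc

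The Gzma window holds a RUNX core 50 to 45 bases and a T-box core 80 to 75 bases before the start. The Prf1 window holds all 3 motifs, with an ETS core on each strand, and the Ifng window none of these letters. Over the 7 members with a window, 5 hold the RUNX core (Gzma, Gzmb, Prf1, Nkg7, Klrk1), 3 the ETS core (Prf1, Nkg7, Klrk1) and 4 the T-box core (Gzma, Gzmk, Prf1, Nkg7). Of all 32851 windows of the same length, 14%, 25.7% and 11.8% hold the RUNX, ETS and T-box cores. A match is a run of letters and not a measured binding site. Ccl5 and Klrd1 are named only.

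Cells were clustered without the 9 members, so the members took no part in the naming of classes. T-like cells were divided by UMIs of Cd8a or Cd8b1 against Cd4 into CD8 T (47 cells in KPC-4545, 69 in KPC-3403) and CD4 T (37 in KPC-4545, 50 in KPC-3403). T-like cells with neither numbered 44 in KPC-4545 and 79 in KPC-3403. Of the NK-like cluster, cells with no UMI of Cd3d, Cd3e, Cd3g or Trac (22 in KPC-4545, 34 in KPC-3403) are called NK-like cells without CD3, and the other 11 and 22, in the same order of lines, NK-like cells with CD3. Cd3e was found in 93.6% and 89.9% of CD8 T cells and in 89.2% and 88.0% of CD4 T cells. The NK marker Ncr1 was found in 86.4% and 64.7% of the NK-like cells without CD3, all 12 NK markers were detected there, and Cd8a, Cd8b1 and Cd4 were at 0. Ncr1 was at 0 in the CD8 T and CD4 T cells of both lines.

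The UMIs of the members were mostly in T-like and NK-like cells. Cells outside the T-like and NK-like classes held no UMI of Gzmb, Gzmk or Ifng in either line, and at most 14.3% of the UMIs of any member. Levels below are UMIs of a gene per 10000 UMIs of the summed cells of a class, with exact Poisson intervals. Shares of cells have exact Clopper-Pearson intervals. All intervals are at 95% and cover counting error only. In each list of paired values KPC-4545 is given before KPC-3403.

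Gzma was highest in NK-like cells without CD3, at 48.9 (44.6 to 53.4) and 79.1 (74.2 to 84.4) UMIs per 10000, from 488 and 940 UMIs. CD8 T cells had 14.3 (12.8 to 15.9) and 8.37 (7.45 to 9.36), from 353 and 306 UMIs. CD4 T cells had 0 of 140296 UMIs in KPC-4545 and 21 UMIs in KPC-3403, all in 1 cell. So the order NK-like, CD8 T, CD4 T held in both lines, and the intervals did not overlap within a line. The CD8 T level rested on few cells: 9 of 47 (19.1%) and 17 of 69 (24.6%) had a UMI, and a single cell held 182 of the KPC-4545 UMIs (51.6%) and another 79 of the KPC-3403 UMIs (25.8%). Without these cells the CD8 T levels were 7.20 and 6.33 UMIs per 10000.

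Prf1, whose product opens the way for granzymes, followed the same order at lower counts. NK-like cells without CD3 had 5.01 (3.71 to 6.60) and 4.80 (3.63 to 6.22) UMIs per 10000, from 50 and 57 UMIs. In CD8 T cells it was at 0.486 (0.251 to 0.849) and 0.766 (0.509 to 1.11), and in CD4 T cells at 0.214 and 0.108 from 3 UMIs in each line. A Prf1 UMI was found in 54.5% and 79.4% of NK-like cells without CD3, in 14.9% and 27.5% of CD8 T cells and in 8.11% and 4% of CD4 T cells. B-like cells, which should lack the gene, had shares of 1.13% and 0.806% at median depths of 3175 and 3058.5 UMIs, against 4863 and 4975 UMIs in CD8 T cells. The intervals of CD8 T and CD4 T levels overlapped in KPC-4545 and not in KPC-3403.

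By summed UMIs the order of CD8 T and CD4 T cells for Gzmb changed with the tumour line. Its level was 15.9 (13.5 to 18.6) and 11.6 (9.76 to 13.7) UMIs per 10000 in NK-like cells without CD3. CD8 T cells had 2.59 (2.0 to 3.31) and 3.20 (2.65 to 3.83). CD4 T cells had 11.8 (10.0 to 13.7) in KPC-4545 and 0.684 (0.412 to 1.07) in KPC-3403. In KPC-4545 the CD4 T level was therefore above that of CD8 T cells, and in KPC-3403 below it. The KPC-4545 value came from 5 of 37 CD4 T cells, 1 of which held 114 of the 165 UMIs (69.1%). Without the top cell of each sum the CD4 T levels were 3.90 in KPC-4545 and 0.377 in KPC-3403. The KPC-4545 value was still above the 2.59 of CD8 T cells with all cells kept. By share of cells the order did not change: a Gzmb UMI was found in a larger share of CD8 T than of CD4 T cells in both lines.

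Gzmk, unlike Gzma, had most of its UMIs in CD8 T cells. CD8 T cells had 1.86 (1.36 to 2.49) and 1.59 (1.2 to 2.05) UMIs per 10000, found in 14 of 47 (29.8%) and 25 of 69 (36.2%) cells. In NK-like cells without CD3 there were 0 UMIs in 22 cells in KPC-4545 and 8 UMIs in 3 of 34 cells in KPC-3403. CD4 T cells had 18 UMIs in 5 cells in KPC-4545 and 2 UMIs in 1 cell in KPC-3403, or 1.28 and 0.0720 per 10000. The ratio of CD8 T over CD4 T cells was 1.45 (0.826 to 2.66) in KPC-4545, an interval that includes 1, and 22.0 (5.83 to 186) in KPC-3403. CD8 T cells held 56.8% and 80.6% of all Gzmk UMIs in cells, while NK-like cells, with and without CD3, held 57.9% and 78.0% of those of Gzma.

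Nkg7 and Ccl5 were found in most CD8 T and NK-like cells. Nkg7 was at 30.6 (27.3 to 34.3) and 34.7 (31.4 to 38.2) UMIs per 10000 in NK-like cells without CD3. CD8 T cells had 24.3 (22.4 to 26.3) and 26.2 (24.6 to 27.9), and CD4 T cells 9.84 (8.26 to 11.6) and 3.10 (2.48 to 3.83). An Nkg7 UMI was found in 85.1% and 91.3% of CD8 T cells and in 40.5% and 22.0% of CD4 T cells. Ccl5 was at 91.9 (86.0 to 98.0) and 170.2 (163 to 178) UMIs per 10000 in NK-like cells without CD3, at 59.3 (56.3 to 62.4) and 97.3 (94.2 to 101) in CD8 T cells, and at 35.9 (32.9 to 39.2) and 4.68 (3.91 to 5.56) in CD4 T cells. Both genes thus kept the order NK-like, CD8 T, CD4 T in each line.

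Ifng counts were small in every class. CD8 T cells had 27 and 23 UMIs, or 1.09 (0.721 to 1.59) and 0.629 (0.399 to 0.944) per 10000, in 7 of 47 and 8 of 69 cells. A single CD8 T cell held 63.0% of these UMIs in KPC-4545 and another 47.8% in KPC-3403. NK-like cells without CD3 had 0.601 (0.220 to 1.31) and 1.26 (0.707 to 2.08), and CD4 T cells 0.784 (0.391 to 1.40) and 0.108 (0.0223 to 0.316). The intervals of NK-like and CD8 T cells overlapped in both lines, so their order was not detectable at this depth.

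The receptor genes split by class. Klrk1 was at 7.71 (6.08 to 9.63) and 6.15 (4.82 to 7.73) UMIs per 10000 in NK-like cells without CD3, at 0.932 (0.590 to 1.40) and 0.766 (0.509 to 1.11) in CD8 T cells, and at 1 UMI in each line in CD4 T cells. Klrd1 was at 7.11 (5.55 to 8.97) and 9.43 (7.76 to 11.3) in NK-like cells without CD3, at 4.62 (3.81 to 5.55) and 6.12 (5.35 to 6.98) in CD8 T cells, and at 0.642 (0.293 to 1.22) and 0.648 (0.384 to 1.02) in CD4 T cells. A Klrk1 UMI was found in 86.4% and 85.3% of NK-like cells without CD3 and in 17% and 20.3% of CD8 T cells; for Klrd1 the CD8 T shares were 63.8% and 76.8%. The Klrd1 intervals of NK-like and CD8 T cells met at 5.55 in KPC-4545 and were apart in KPC-3403.

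**Figure D1:**
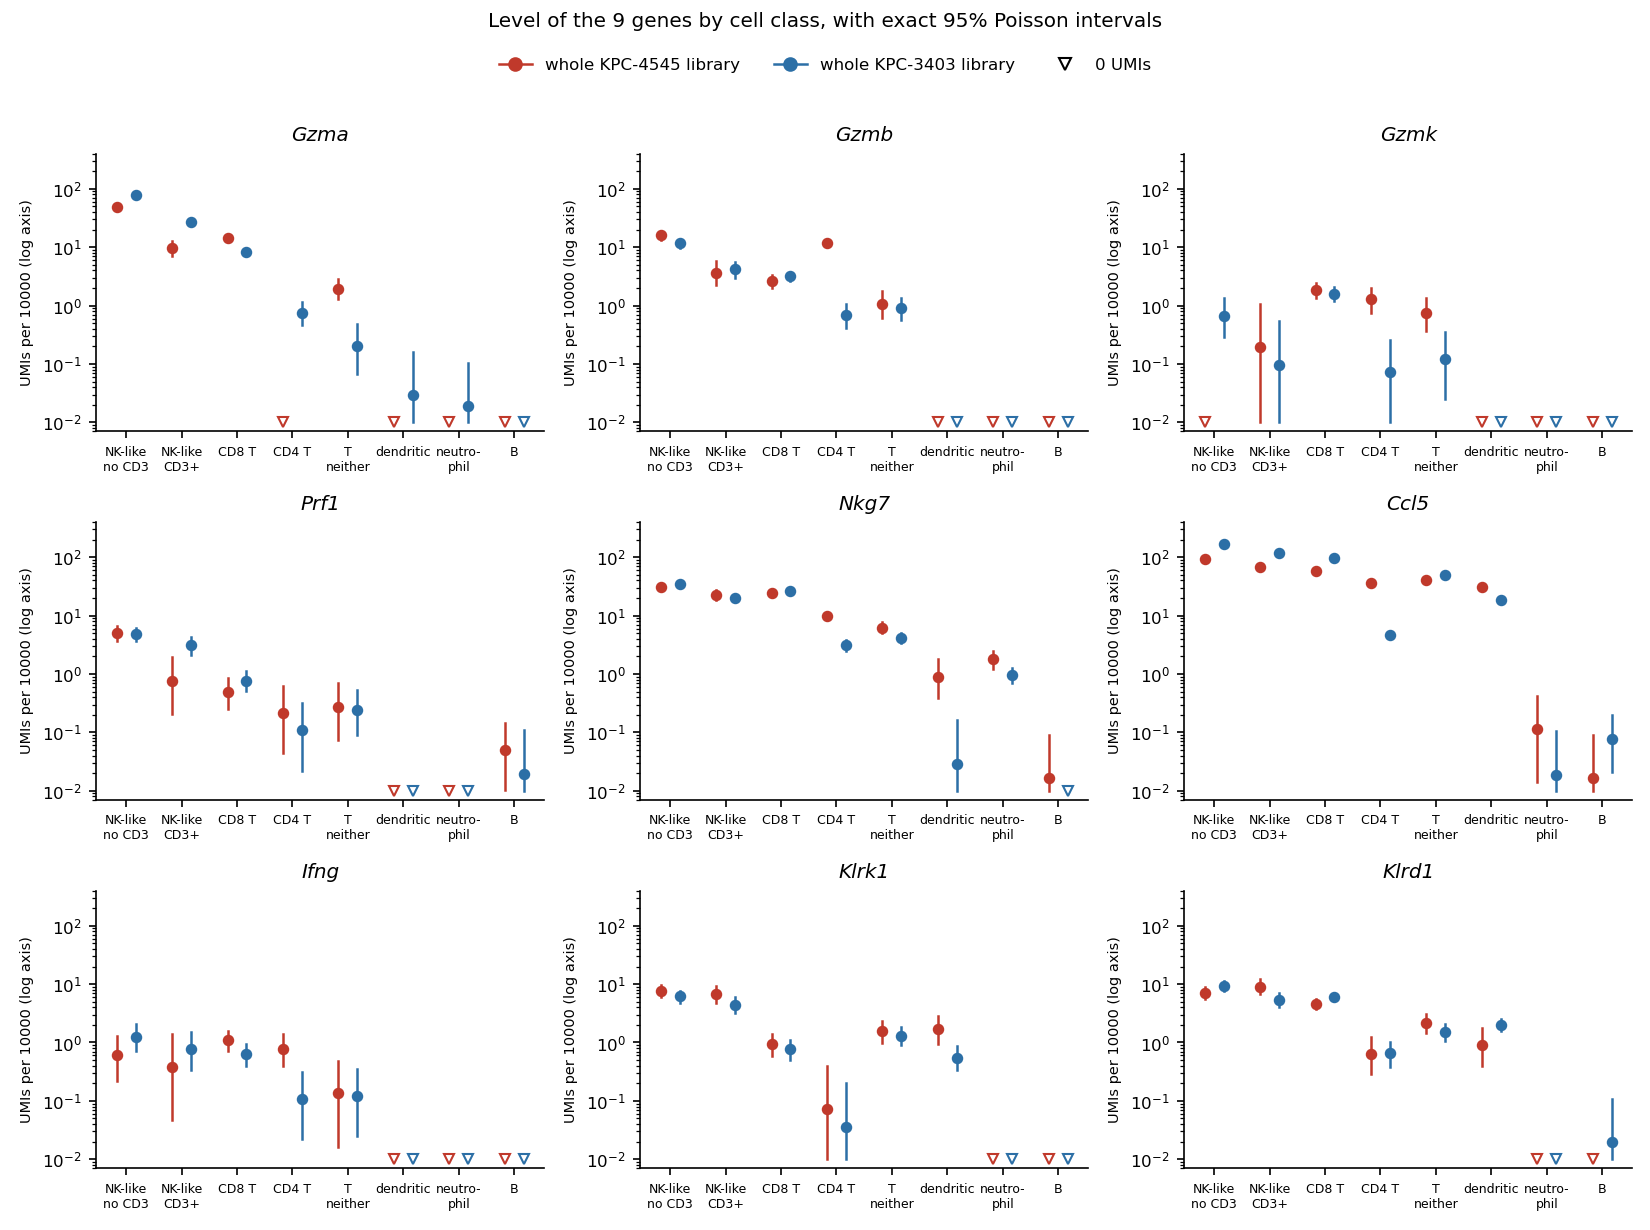
Level of each of the 9 genes, in UMIs per 10000 UMIs on a log axis, in 8 cell classes of the whole libraries, with red points for KPC-4545 to the left of blue points for KPC-3403 and exact 95% Poisson intervals as bars; open triangles at the bottom mark classes with 0 UMIs. Gzma, Prf1 and Klrk1 are highest in NK-like cells without CD3. Gzmk is highest in CD8 T cells, though in KPC-4545 at 1.86 against 1.28 in CD4 T cells. Gzmb in CD4 T cells is at 11.8 in KPC-4545 against 0.684 in KPC-3403.

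NK-like cells with CD3, as clustered here, had lower levels of Gzma and Prf1 than NK-like cells without CD3. Gzma was at 9.67 and 27.0 UMIs per 10000 there, and Prf1 at 0.773 and 3.10. These values rested on single cells: 1 cell held 90.7% of the Gzma UMIs and 1 held 87.5% of the Prf1 UMIs of KPC-3403. Without the top cell the levels were 4.67 and 2.72 for Gzma and 0.211 and 0.418 for Prf1, below CD8 T cells without their top cell (7.20 and 6.33 for Gzma, 0.366 and 0.692 for Prf1). The Prf1 levels came from 4 and 32 UMIs before the top cell was left out, and no interval was computed for what remained. With all cells kept, the ratio over CD8 T cells was 1.59 (0.374 to 5.25) and 4.04 (2.36 to 6.97) for Prf1, and 0.676 and 3.23 for Gzma. For cells without CD3 over those with CD3 the Prf1 ratio was 6.47 (2.38 to 24.7) and 1.55 (0.988 to 2.47). The KPC-3403 interval for Prf1 thus includes 1. For Gzma this ratio was 5.05 (3.77 to 6.90) and 2.93 (2.56 to 3.36). Klrk1 was at 6.77 and 4.45, near the level of the cells without CD3, and Gzmk at 0.193 and 0.0968. The NK marker list summed to 52.4 and 35.8 UMIs per 10000 in these cells, against 78.1 and 80.1 without CD3. The T-like list summed to 30.9 and 27.0 against 6.61 and 5.72. Erythroid markers summed to 6.19 and 75.2 in NK-like cells with CD3, against 7.61 and 11.3 without CD3. The number of NK-like cells with CD3 depended on the clustering. It was 11 and 22, against 4 and 8 with Leiden resolution 2 and 4 and 7 with members clustered. With called doublets kept it stayed at 11 and 22. The part of these limits in the levels was not tested. T-like cells with neither Cd8 nor Cd4 UMIs were low in Gzma (1.95 and 0.204) and Gzmb (1.08 and 0.898), while Ccl5 was at 41.1 and 50.6.

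Outside T-like and NK-like cells, shares well above those of B-like cells were seen for Ccl5, Klrk1 and Klrd1 in dendritic-like cells and for Nkg7 in neutrophil-like cells. Ccl5 was found in 50% of 20 and 35.7% of 56 dendritic-like cells, at 30.5 (26.9 to 34.3) and 18.2 (16.8 to 19.7) UMIs per 10000. Klrk1 was found in 25.0% of dendritic-like cells in each line, and Klrd1 in 35.0% and 33.9%. None of the dendritic-like cells had a Gzmb, Gzmk, Prf1 or Ifng UMI. Nkg7 was found in 3 of 28 (10.7%) and 9 of 139 (6.47%) neutrophil-like cells, against 0.565% and 0% of B-like cells. Of 177 and 124 B-like cells 0 had a Gzma, Gzmb, Gzmk or Ifng UMI, which allows shares of up to 1.69% and 2.42% when 3 counts are taken as the limit of a count of 0 (Clopper-Pearson upper bounds 2.06% and 2.93%).

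CD8 T cells were tested against CD4 T cells on the summed counts of both lines. Of the 9 members, Klrd1, Klrk1 and Nkg7 were higher in CD8 T cells, and none was lower. Gzma, Prf1, Ccl5, Gzmk and Ifng had positive differences that did not pass, and Gzmb differed in opposite directions in the lines. The test was edgeR's quasi-likelihood test on 4 sums with the library as a term and 1 residual degree of freedom. All 9 members passed the filter on low counts. Over all 3420 genes tested it called 22 higher (0.643%) and 48 lower (1.40%) in CD8 T cells at an adjusted p under 0.05, and 345 genes had an unadjusted p under 0.05. The 8 of 9 members with a positive log2 difference compare with 1779 of the 3420 genes, and the median log2 difference was 2.36 over the members and 0.02 over all genes. The separate cultures, animals or donors behind the libraries are not named, so p-values measure the spread between these libraries alone. With 1 residual degree of freedom, edgeR also draws the spread of a gene from that of all genes tested. A p-value thus does not rest on the spread of its own gene alone.

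Klrd1 counted 114 and 224 UMIs in CD8 T cells, against 9 and 18 UMIs in CD4 T cells. Its log2 difference was 3.23 (SE 0.316), with an adjusted p of 1.34e-05 by edgeR, and its ratio was 7.20 in KPC-4545 and 9.45 in KPC-3403. Klrk1 counted 23 and 28 UMIs in CD8 T cells against 1 and 1 in CD4 T cells, with a log2 difference of 4.12 (SE 0.693) and an adjusted p of 0.00251 by edgeR. Nkg7 counted 600 and 959 UMIs in CD8 T cells against 138 and 86 in CD4 T cells. Its log2 difference was 2.36 (SE 0.408), the adjusted p was 0.00361 by edgeR, and the ratios were 2.47 and 8.46. All 3 were thus higher in CD8 T cells in both lines. With DESeq2 the adjusted p of Nkg7 was 0.112, and DESeq2 gave none for Klrk1; with called doublets kept, Nkg7 had 0.0580 by edgeR.

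Ccl5 showed how the lines differed. Its counts were 1463 and 3560 UMIs in CD8 T cells against 504 and 130 in CD4 T cells, so the CD8 T over CD4 T ratio was 1.65 in KPC-4545 and 20.8 in KPC-3403; the log2 difference was 2.69 (SE 0.911, adjusted p = 0.353 by edgeR). Gzma had 353 UMIs against 0 in KPC-4545, a level at least 66.9-fold higher in CD8 T cells when the 0 is set to a floor of 3 UMIs in that library, and a ratio of 11.1 in KPC-3403. Its log2 difference was 4.69 (SE 1.08, adjusted p = 0.349 by edgeR). Prf1, with a log2 difference of 2.27 (SE 0.594), had an adjusted p of 0.0622 by edgeR and of 0.0293 without the barcodes shared with the enriched KPC-4545 library, and Gzmk and Ifng, with 1.99 and 1.42, had 0.369 and 0.261. Gzmb was 0.220-fold (0.162 to 0.296) in KPC-4545 and 4.67-fold (2.86 to 8.04) in KPC-3403, and its log2 difference was -0.06 (SE 1.92, adjusted p = 0.997 by edgeR). The difference between these ratios of the lines was not tested. Fitted differences of genes with 0 or 1 UMI in a sum (Gzma, Klrk1, Gzmc, Ccl3) depend on the prior count of the fit. The calls of Gzma, Ccl5, Gzmk, Ifng and Prf1 depended on the setting. With cells of at least 1000 UMIs and 500 genes all 5 passed, with adjusted p from 4.89e-28 to 0.0124 by edgeR, still on 4 sums. This setting also clustered the cells again. Its CD8 T class held 36 and 46 cells, and a cluster of 85 cells nearest to T-like was left unnamed.

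**Figure D2:**
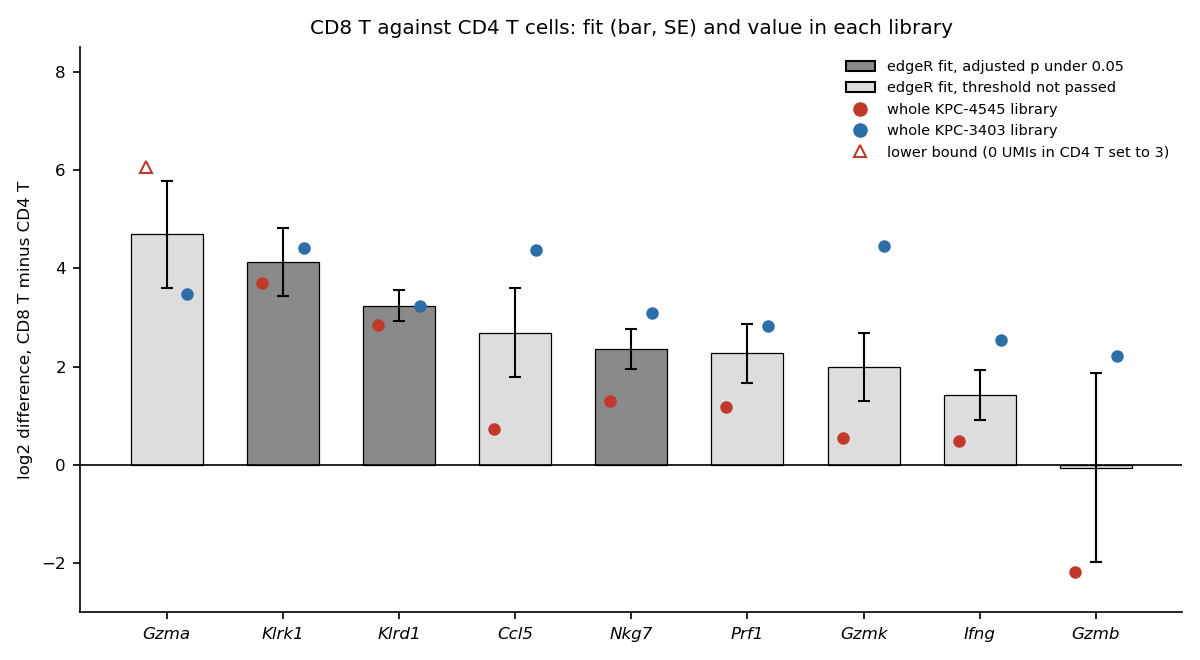
CD8 T minus CD4 T log2 difference of the 9 genes, with bars for the edgeR estimate and lines for its standard error (dark bars have an adjusted p under 0.05), and a dot for the log2 ratio within each library. The open triangle is a lower bound for Gzma in KPC-4545, where CD4 T cells had 0 UMIs; the dots of Gzmb lie on opposite sides of 0.

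Both gated classes held some markers of other cells, and their part in these differences was not tested. In CD8 T and CD4 T cells the T-like list had 10 of 10 markers detected and summed to 53.8 and 61.1 UMIs per 10000 in CD8 T cells against 63.2 and 43.2 in CD4 T cells. The NK list had 9 and 8 of 12 markers detected in CD8 T cells, summing to 4.46 and 3.61, against 6 and 2 of 12 in CD4 T cells, summing to 2.57 and 0.828. Erythroid markers summed to 3.81 and 7.46 in CD8 T cells against 4.92 and 47.3 in CD4 T cells. Markers of type 2 innate lymphoid cells summed to 0.729 and 1.12 in CD8 T cells and 6.63 and 6.70 in CD4 T cells.

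Only part of the 58 listed genes that work with the members passed the filter on low counts and was tested. Of those tested, 6 were higher and 2 lower in CD8 T cells, against 0.643% and 1.40% of all 3420 genes tested. The number tested is given with each list below. Of 10 genes for granule processing and release 8 were tested and 1 was higher: Cst7, which encodes cystatin F, an inhibitor of granule cathepsins, at 4.33 and 3.77 UMIs per 10000 in CD8 T cells against 1.21 and 1.37 in CD4 T cells (log2 difference 1.79, adjusted p = 0.00279 by edgeR). The others ranged from Stx11 at -0.66 to Ctsw at 1.28 and did not pass. Of 7 further granzymes only Gzmc was tested, and it was lower, with 0 and 1 UMIs in CD8 T cells against 26 and 20 in CD4 T cells (log2 difference -5.60, adjusted p = 4.55e-04 by edgeR).

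The receptor partners moved in both directions. Of 8 listed, 4 were tested. Klrc1, which encodes NKG2A, the inhibitory partner of CD94, was at 3.12 and 2.46 UMIs per 10000 in CD8 T cells against 0.642 and 0.360 in CD4 T cells (log2 difference 2.70, adjusted p = 3.00e-04 by edgeR). Klre1, a further lectin-like receptor of NK cells, was higher with 2.87 (adjusted p = 0.00361). Klrg1, an inhibitory receptor of differentiated T cells and regulatory T cells, was lower, with 6 and 2 UMIs in CD8 T cells against 41 and 44 in CD4 T cells (log2 difference -3.81, adjusted p = 1.13e-04 by edgeR). Hcst, the signalling adaptor of NKG2D, had 0.78 and did not pass.

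Of 9 effector ligands and cytokines 4 were tested, and the chemokines Xcl1 and Ccl3 were higher in CD8 T cells. Xcl1, which attracts cross-presenting dendritic cells, was at 9.56 and 12.3 UMIs per 10000 in CD8 T cells against 1.14 and 1.51 in CD4 T cells (log2 difference 3.20, adjusted p = 8.41e-06 by edgeR). Ccl3 had 14 and 110 UMIs against 0 and 2 (log2 difference 5.48, adjusted p = 4.39e-05 by edgeR). Ccl4 and Fasl had 2.93 and 1.05 and did not pass. Of 5 granzyme inhibitors 3 were tested, and Serpinb6b was higher, at 1.22 and 1.72 UMIs per 10000 in CD8 T cells against 0.214 and 0.504 in CD4 T cells (log2 difference 2.11, adjusted p = 0.00781 by edgeR).

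In the other lists no gene passed. Of 8 transcription factors 4 were tested, with differences from -0.45 (Tcf7) to 0.99 (Tox); the most abundant, Id2, was at 2.92 and 4.46 UMIs per 10000 in CD8 T cells against 5.35 and 5.47 in CD4 T cells. Tbx21 and Eomes, the T-box factors of effector lymphocytes, were too low to be tested. Of 5 receptor genes for interferon gamma and Ccl5 3 were tested. Ifngr2 had a difference of -0.80, and Ifngr1 was at 6.52 and 5.77 in CD8 T cells against 10.4 and 6.37 in CD4 T cells. Of 6 ligands of NKG2D and CD94 only H2-T23, which encodes Qa-1, was tested, with -0.28.

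CD8 T cells fell mostly into 2 of the T-like clusters, and the members differed between these. Cluster 10, led by Cd8a, Cd8b1, Cxcr6, Pdcd1 and Lag3, held 24 of 47 and 37 of 69 CD8 T cells. Cluster 1, led by Lef1 and Tcf7, factors of naive and memory T cells, held 18 and 26. The median UMIs were 5066 and 5064 in cluster 10 and 5038 and 5111 in cluster 1, and the mean UMIs 5703 and 5750 against 5270 and 5161. The clusters come from the same cells, and these values are a description.

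Nkg7 was at 37.1 and 37.7 UMIs per 10000 in cluster 10 against 9.59 and 9.46 in cluster 1. Ccl5 was at 80.8 and 119 against 37.5 and 73.0, and Klrd1 at 6.58 and 8.79 against 2.21 and 2.16. Cluster 10 thus had the higher level of all 3 in each line, and every CD8 T cell in it had an Nkg7 UMI. Gzma was at 25.5 and 12.3 in cluster 10 against 0.422 and 2.98 in cluster 1, and without the top cells at 13.1 and 8.91 against 0.226 and 0.761. Of the Ifng UMIs of CD8 T cells, cluster 10 held 27 of 27 and 22 of 23, and cluster 1 held 0. Gzmb was at 1.83 in cluster 10 against 2.74 in cluster 1 in KPC-4545, and at 4.70 against 1.19 in KPC-3403. In KPC-4545 a single cell held 24 of the 26 Gzmb UMIs of cluster 1; without the top cell of each cluster the levels were 1.18 against 0.226. A Gzmb UMI was found in 33.3% and 40.5% of cells of cluster 10 against 16.7% and 19.2% of cluster 1. Gzmk was at 2.19 against 1.69 in KPC-4545, or 1.81 against 0.343 without the top cells, and at 2.54 against 0 in KPC-3403.

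**Figure D3:**
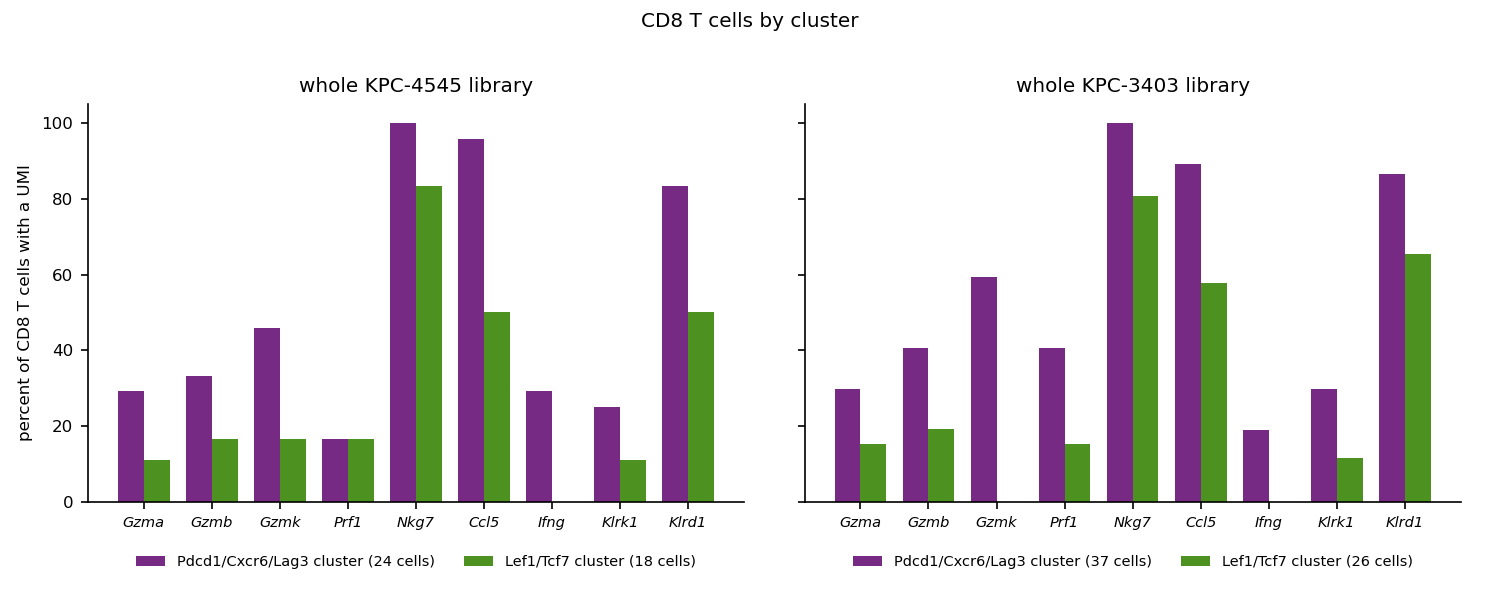
Percent of CD8 T cells with at least 1 UMI of each gene in the cluster led by Pdcd1, Cxcr6 and Lag3 (24 cells in KPC-4545, 37 in KPC-3403) and in the cluster led by Lef1 and Tcf7 (18 and 26 cells), with a panel for each library. Nkg7 was found in all cells of the first cluster, and Ifng in none of the second.

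The Gzmb UMIs of CD4 T cells were in another cluster. Cluster 5, led by Tnfrsf4, Il2ra, Ctla4, Icos and Klrg1, held 28 of 37 (75.7%) and 28 of 50 (56%) CD4 T cells, and all 165 and 19 Gzmb UMIs of the class. Cluster 1 held 5 (13.5%) and 19 (38%) of the CD4 T cells. The CD4 T cells that fell into cluster 10 were 4 and 3 in number and held 250 of 504 and 71 of 130 Ccl5 UMIs, 65 of 138 and 47 of 86 Nkg7 UMIs, and the 21 Gzma UMIs of KPC-3403. Foxp3, the factor of regulatory T cells, was found in 13.5% and 18% of all CD4 T cells.

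NK-like cells without CD3 exceeded CD8 T cells most in the lytic genes and in Klrk1. Gzma was 3.42-fold and 9.46-fold higher, Prf1 10.3-fold and 6.27-fold, Gzmb 6.14-fold and 3.63-fold, and Klrk1 8.27-fold and 8.03-fold. These 4 of 9 members were at least 2-fold higher in both lines, against 4.16% of the 1996 genes counted. Gzmk was lower in both: 0 against 46 UMIs in KPC-4545, a level at least 6.20-fold lower with 3 UMIs as the floor, and 0.425-fold in KPC-3403. Genes at least 2-fold lower in both lines were 3.21% of those counted. Ccl5 (1.55 and 1.75), Nkg7 (1.26 and 1.32) and Klrd1 (1.54 and 1.54) were higher by less than 2-fold. Ifng was 0.549-fold in KPC-4545 and 2.01-fold in KPC-3403, from 6 and 15 UMIs in the NK-like cells.

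Of the 58 other listed genes, 25 were counted in this comparison. Of these, 8 were at least 2-fold higher in both lines, against 4.16% of all 1996 genes counted. They included the granzyme inhibitors Serpinb9 (5.98 and 10.0) and Serpinb6b (4.53 and 4.45), and the T-box factor Eomes (6.32 and 9.65). Eomes, Klrb1c, Klre1 and Klrc2 are also among the markers that named the NK-like cluster, so their place here is fixed by that choice. Tox, a factor of chronically stimulated T cells, was the 1 listed gene at least 2-fold lower in both lines, against 3.21% of all genes counted.

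Between the tumour lines, none of the 9 members reached 2-fold in CD8 T cells, against 10.6% of the 3475 genes counted in CD8 T cells. Ccl5 was 0.609-fold (0.572 to 0.647) in KPC-4545 over KPC-3403 and Klrd1 0.754-fold (0.596 to 0.949), both lower. Gzma was 1.71-fold (1.46 to 2.0), and without the top cell of each line its levels were 7.20 and 6.33 UMIs per 10000. The intervals of the other 6 ratios included 1: Nkg7 0.927 (0.836 to 1.03), Gzmb 0.810 (0.588 to 1.11), Gzmk 1.17 (0.780 to 1.76), Ifng 1.74 (0.960 to 3.17), Klrk1 1.22 (0.670 to 2.19) and Prf1 0.635 (0.294 to 1.29). The intervals of Ifng, Klrk1 and Prf1 thus take in a 2-fold difference, and those of the other 6 do not. Of the 58 other listed genes, 28 were counted in CD8 T cells and 4 were past 2-fold, all lower: Ccl3 (0.567 against 3.01 UMIs per 10000), Stx11, Tbx21 and Tnfsf10.

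In CD4 T cells 4 members were at least 2-fold higher in KPC-4545. Gzmb was 17.2-fold (10.7 to 29.3), Gzmk 17.8-fold (4.26 to 158), Ccl5 7.67-fold (6.32 to 9.38) and Nkg7 3.18-fold (2.41 to 4.21). Gzma was at 0 against 21 UMIs, a level at least 3.54-fold lower, and Klrd1 was 0.990-fold. So 4 of 6 members counted were past 2-fold upward, against 7.71% of 2749 genes, and 1 of 6 downward, against 6.15%. Single cells held 69.1% of the Gzmb, 66.7% of the Gzmk and 42.1% of the Ccl5 UMIs of KPC-4545, and all Gzma UMIs of KPC-3403. Without the top cell of each sum, 3 members were past 2-fold: Gzmb, Ccl5 and Nkg7, with log2 ratios of 3.32, 3.09 and 1.73. Gzmk and Gzma then had under 20 UMIs over both lines and were no longer counted. With T-like sub-clusters in place of the gate, 1 member was past 2-fold. The class was also made up differently: cluster 1 held 13.5% of CD4 T cells in KPC-4545 and 38% in KPC-3403, and its part was not tested. The erythroid list stood at 4.92 UMIs per 10000 in KPC-4545 CD4 T cells and 47.3 in those of KPC-3403, and its part was not tested. Of the other listed genes 21 were counted, with 4 higher in KPC-4545 (Ccl4, Ctsw, Gzmc and Tox) and 2 lower (Ifngr2 and Stx11).

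NK-like cells without CD3 had a single member past 2-fold between lines, Ifng at 0.476-fold (0.151 to 1.30), among 8 members counted and against 9.50% of 1452 genes. Ccl5 was 0.540-fold (0.499 to 0.584) and Gzma 0.617-fold (0.552 to 0.689), so both were lower in KPC-4545 beyond counting error, and Gzmb was 1.37-fold (1.08 to 1.73). Prf1 (1.04), Klrk1 (1.25), Nkg7 (0.883) and Klrd1 (0.754) lay nearer to 1. Of 28 other listed genes counted, 3 were at least 2-fold higher (Gzmc, Serpinb9b and Xcl1) and 2 lower (Ccl4 and Tbx21). The granzyme Gzmc was at 8.91 UMIs per 10000 in KPC-4545 against 0.589 in KPC-3403, and the chemokine Ccl4 at 4.70 against 16.3. Ccl5 was thus lower in KPC-4545 than in KPC-3403 in NK-like and CD8 T cells, and higher in CD4 T cells.

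**Figure D4:**
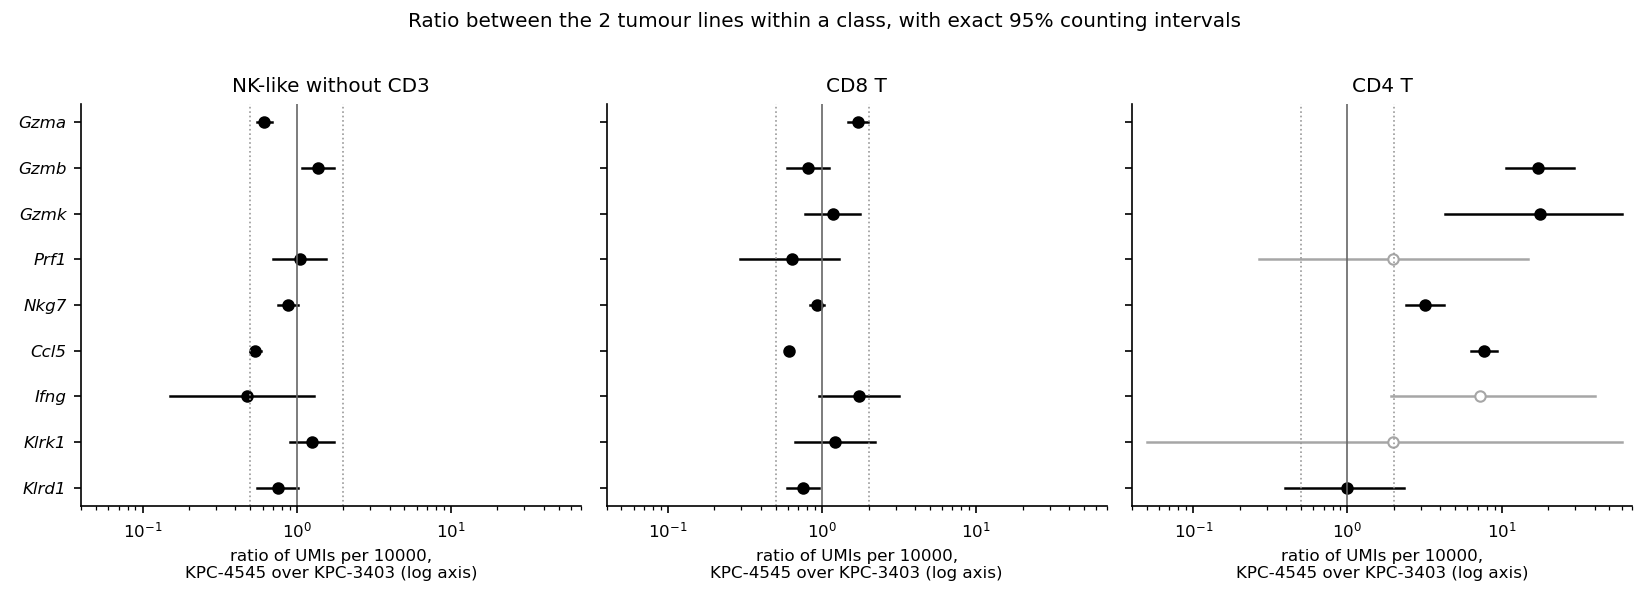
Ratio of the level in KPC-4545 over KPC-3403 for each gene, on a log axis, in NK-like cells without CD3, CD8 T cells and CD4 T cells, with exact 95% conditional binomial intervals cut at the axis limits; grey open points had under 20 UMIs over both libraries, dotted lines mark 0.5 and 2, and genes at 0 UMIs in a library are not drawn. All CD8 T points lie between the dotted lines, and Gzmb, Gzmk, Ccl5 and Nkg7 of CD4 T cells lie above 2.

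Co-detection was counted cell by cell, with each cell thinned to 1000 UMIs so that depth did not set the number. At least 3 of the 9 members were found in 90.9% and 91.2% of NK-like cells without CD3, in 48.9% (33.7 to 64.2) and 53.8% (41.0 to 66.3) of CD8 T cells, and in 13.9% (4.67 to 29.5) and 4.08% (0.498 to 14) of CD4 T cells. Unthinned, the shares were 95.5% and 97.1%, 66.0% and 81.2%, and 24.3% and 10.0%, in the same order. The classes kept this order in both lines and at both depths. Thinning left out 0 and 0 NK-like cells without CD3, 2 and 4 CD8 T cells and 1 and 1 CD4 T cells. No B-like cell had more than 1 member, and no cell of these classes had all 9.

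Prf1 was found with Gzma or Gzmb in most NK-like cells without CD3 and in few cells of the other classes. Both were found in 12 of 22 (54.5%, 32.2 to 75.6) and 26 of 34 (76.5%, 58.8 to 89.3) NK-like cells without CD3. In NK-like cells with CD3 they were found in 2 of 11 (18.2%) and 3 of 22 (13.6%). In CD8 T cells they were found in 5 of 47 (10.6%, 3.55 to 23.1) and 11 of 69 (15.9%, 8.24 to 26.7), and in CD4 T cells in 1 of 37 and 0 of 50. After thinning the shares were 27.3% and 35.3% in NK-like cells without CD3, 9.09% and 4.55% in those with CD3 and 4.44% and 4.62% in CD8 T cells. All of Prf1, Gzma and Gzmb were found in 9 and 18 NK-like cells without CD3, and in 0 and 1 CD8 T cells.

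Of the Gzma-positive CD8 T cells (9 and 17), 4 and 6 also had Gzmb, where the product of the single shares gives 2.49 and 5.17 cells. Gzma and Prf1 met in 1 and 4 cells, where the product gives 1.34 and 4.68. Gzmb and Prf1 met in 4 and 8 cells, where the product gives 1.94 and 5.78, Gzmb and Gzmk in 6 and 9 cells, against 3.87 and 7.61, and Gzma and Gzmk in 3 and 10 cells, against 2.68 and 6.16. Nkg7, itself found in 85.1% and 91.3% of CD8 T cells, was present in every CD8 T cell with a Gzma, Gzmk, Ifng or Klrk1 UMI in both lines. It was present in 12 of 13 and 21 of 21 cells with Gzmb, 7 of 7 and 18 of 19 with Prf1, 32 of 33 and 52 of 53 with Ccl5, and 29 of 30 and 52 of 53 with Klrd1. In NK-like cells without CD3, Gzma was present in 12 of 12 and 26 of 27 cells with Prf1 and in 13 of 14 and 19 of 19 cells with Gzmb. These counts are unthinned and rest on few cells.

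The members were compared with each other and with other genes across 22 class-by-library units of at least 20 cells. The values are Pearson correlations of log2(UMIs per 10000 + 0.1), the units of a line share a library, and no p is given. The units also took in B-like, myeloid, erythroid-like, epithelial and fibroblast-like cells, where most members were low. A high value thus does not separate likeness within T-like and NK-like cells from their contrast with other cells. The share of all genes with values as high was not computed. Among the members, Gzmb and Ifng (0.96), Ccl5 and Klrd1 (0.96) and Gzma and Prf1 (0.95) were most alike, and Gzmk and Klrk1 least (0.41). Outside the members and the marker lists, Gzma and Gzmb were most like Fasl (0.91 and 0.97) and Prf1 most like Ifitm10 (0.95). Nkg7 was most like Cst7 (0.96), Ccl5, Klrk1 and Klrd1 most like Cd7 (0.95, 0.91 and 0.96), Ifng most like Sla2 (0.94), and Gzmk most like Tox (0.90).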

How the data were processed

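The deposited files are matrices of raw UMI counts per gene and droplet barcode, which the authors made from 10x 5' libraries per the labels' protocols. Per the submitters' processing notes the genome was mm10 and the counting tool Cell Ranger 6.1.1; per the file headers it was Cell Ranger 4. Every matrix column used is a droplet of 1 library, and 0 columns were left unused. Gene positions come from GENCODE vM21, promoters from RefSeq.

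A barcode was kept as a cell with 500 or more UMIs, 250 or more genes and no more than 20% of UMIs from mitochondrial genes. Those with 5000 UMIs or fewer were also tested against the summed profile of free RNA, taken from barcodes of 100 UMIs or fewer (1000 draws, false discovery rate 0.01). Doublets were removed at an expected 0.8% per 1000 cells, which took 2 cells from whole KPC-4545 and 10 from whole KPC-3403. The whole libraries were clustered in scanpy 1.11.5 on 2000 variable genes without the members, with 30 components, 15 neighbours and Leiden resolution 1 (leidenalg 0.10.2), which gave 20 clusters named by marker lists. The marker Txk was not counted for naming, and the NK-like cluster was divided by CD3 genes, both decided after the clusters were seen. CD8 T cells are T-like cells with a UMI of Cd8a or Cd8b1 and none of Cd4, and CD4 T cells the reverse.

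Counts were summed per class and library. CD8 T and CD4 T sums were tested with edgeR 4.0.16 (R 4.3.3; glmQLFit, TMM, filterByExpr, Benjamini-Hochberg at 0.05) with the library as a block, because both sums of a line come from 1 library; DESeq2 1.42.0 was an alternative. On simulated data over 3490 genes of this comparison, edgeR recovered 63.3% of 4-fold and 97% of 8-fold changes with 0 false calls. All genes were drawn at a single dispersion of 0.1, and only well-counted genes with no sum at 0 were changed. These rates were thus not measured for genes as low as Prf1, Klrk1 and Ifng, or with a sum at 0 as Gzma. Ratios between lines or classes have exact conditional binomial intervals (scipy 1.17.1), counted where a gene had at least 20 UMIs over the sums. Thinning drew 1000 UMIs per cell without replacement.

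The members and the gene lists were chosen with earlier results of these data known. Named are the 9 members, every listed gene past the threshold, else a list's most abundant genes, and for likeness the closest genes with at least 100 UMIs. Stx11, Tcf7, Tox, Ifngr2, Ctsw, Ccl4, Fasl, Hcst, Gzmc and the genes past 2-fold between lines or classes are named for range or count after their values were seen. A result on an item withheld from the text is not reported here.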

Additional observations from a re-analysis of the deposited data

Results flagged for a closer look

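Gzmb had opposite directions between CD8 T and CD4 T cells in the tumour lines by summed UMIs, not by share of cells. Its level in CD8 T over CD4 T cells was 0.220-fold in KPC-4545 and 4.67-fold in KPC-3403, and the difference between the lines was not tested. Of the KPC-4545 CD4 T UMIs 69.1% were in 1 cell. Without the top cell of each sum the CD4 T level was 3.90 UMIs per 10000 in KPC-4545 and 0.377 in KPC-3403. The KPC-4545 value was still above the 2.59 of CD8 T cells with all cells kept.

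Ifng was 0.549-fold (0.185 to 1.36) in NK-like cells without CD3 over CD8 T cells in KPC-4545 and 2.01-fold (0.974 to 4.02) in KPC-3403. Both counting intervals include 1, and the difference between the lines was not tested. The NK-like counts were 6 and 15 UMIs, and single cells held 63.0% and 47.8% of the CD8 T UMIs.

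The enriched libraries, which the comparisons do not use, held UMIs of some members in called cells although CD45+ cells had been sorted out. The enriched KPC-4545 library held 153 Ccl5 UMIs in 23 of 1630 cells and the enriched KPC-3403 library 160 Ccl5 UMIs in 22 of 2476 cells. A collagen or decorin UMI was found in 10 and 19 of these cells and a Ptprc UMI in 0 and 0. The enriched KPC-4545 library also held 14 Gzmb UMIs in 4 cells, and 5 Nkg7 UMIs in 1 cell whose barcode is shared with whole KPC-3403.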

How the results depend on the processing

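The CD8 T against CD4 T test called 70 genes. Without the replicate block, which pairs the sums of a library, it called 67 genes; RLE size factors gave 70 and Leiden resolution 2 gave 73. Counts moved beyond 1.5 times with DESeq2 (17), called doublets kept (31), members among the genes clustered (117), NK-like sums in the fit (118), cells of at least 1000 UMIs and 500 genes (127), no filter (135) and T-like sub-clusters (179). The split was 22 higher and 48 lower, against 60 and 75 with no filter and 54 and 73 with the deeper cells, which were clustered again. Klrd1 passed in all of these settings and Gzmb in none. Against 3 members called, there was 1 with DESeq2, which gave no adjusted p for Klrk1 and Prf1, 5 with members clustered, 7 with no filter, 7 in sub-clusters and 8 with the deeper cells. Leaving out a library leaves no residual degree of freedom; the log2 difference of Gzmb was then from -2.17 to 2.19, of Ccl5 from 0.72 to 4.37, of Nkg7 from 1.30 to 3.07 and of Klrd1 from 2.78 to 3.20. Without barcodes shared with the enriched KPC-4545 library 142 genes were called. This setting, leaving out top cells and the whole NK-like cluster were chosen after seeing the data.

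Between lines, the count of members past 2-fold in CD4 T cells was 5, against 3 without top cells and 1 in sub-clusters. The log2 ratio of Gzma, lower in KPC-4545 CD4 T cells, changed sign to 1.00 without top cells and 0.66 in sub-clusters. Without top cells Gzma had 0 UMIs in CD4 T cells of both lines. The 1.00 thus reflects only the class totals and the 0.5 UMIs added to each sum, and shows no higher Gzma in KPC-4545. The Gzma counts in sub-clusters are not given here, and no direction is drawn from 0.66. In CD8 T cells the count of members past 2-fold was 0, against 1 with members clustered and 2 in sub-clusters. In NK-like cells it was 1, against 0 with Leiden resolution 2, members clustered, the whole NK-like cluster or TMM. Cells with 3 or more members depended on depth: CD8 T in KPC-4545 31.9% at 500 UMIs and 66.0% unthinned, in KPC-3403 27.5% at 500, 67.2% at 2000 and 81.2% unthinned; NK-like in KPC-4545 50% at 500, in KPC-3403 73.5% at 500 and 100% at 2000. Apart from the Gzma value without top cells, the cause of each of these changes was not tested. Ifng, Klrk1 and Prf1 are limited by their counts.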
